A study of Mus musculus with 12 samples.

Results

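The genes described here form a feedback group of cytokine signaling: the suppressors of cytokine signaling Cish, Socs1, Socs2, Socs3, Socs4 and Socs7, the adaptor Sh2b3, and the PIM kinases Pim1, Pim2 and Pim3. They were chosen by name, and 10 of 10 had a row among the 15651 genes of the deposited expression table. Their transcripts were measured by RNA sequencing in leukemic spleen cells from 6 moribund mice, 3 per genotype, all of which carried Flt3 ITD/ITD. D/F acute myeloid leukemia (AML) was Dnmt3a fl/fl, Flt3 ITD/ITD, Mx1Cre, and T/F AML was Tet2 fl/fl, Flt3 ITD/ITD, Mx1Cre. Mx1Cre is an interferon-inducible Cre that was used here without the inducer, so that deletion of the floxed alleles was spontaneous and could affect either allele or both. The cells were enriched for c-Kit, plated with SCF, IL-6 and IL-3, and the cells of each mouse were given vehicle (DMSO) or CCS1477 (inobrodib), which blocks the bromodomain of the histone acetyltransferases p300 and CBP. Exposure lasted 6 h, at 4 µM in D/F cells and 2 µM in T/F cells, so the effects of genotype and of dose cannot be told apart. This gave 4 groups of 3 libraries, and in bulk RNA fewer cells of a type and less RNA per cell cannot be told apart. The 3 mice of a group are separate animals. D/F replicate 2 stood apart in both treatments, with a correlation across genes (log2 scale) of 0.945 to 0.956 to the other D/F libraries of its group, where the other pairs within groups reached at least 0.978. Of the D/F libraries of its treatment it had the highest Kit (149 TPM with vehicle) and Flt3. It also had the highest Cd34 with vehicle (447 TPM), though not with CCS1477. Other markers from the same progenitor list, Mpo, Elane, Prtn3, Ctsg and Ms4a3, were lowest in it, as was the sum over that list. Its neutrophil markers, Pim1, Socs3 and Cish were also the lowest of those libraries.

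When a cytokine binds its receptor, JAK kinases phosphorylate STAT proteins, which enter the nucleus and switch on target genes. Several of those targets act back on the pathway. SOCS proteins and Cish bind phosphorylated receptors or JAKs through an SH2 domain and can recruit a ubiquitin ligase, and Sh2b3 (also known as Lnk) restrains JAK2 and Kit in blood progenitors. PIM kinases are constitutively active serine/threonine kinases, set mainly by how much of them is made, which carry STAT signals toward growth and survival and are induced by mutant FLT3.

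After 6 h of CCS1477 the group did not move in a single direction. Pim2 rose about 2.48-fold in D/F cells, Pim3 fell in T/F cells to 0.589 times the vehicle level, and Sh2b3, Socs7 and Pim1 rose by smaller amounts in T/F cells. Cish, Socs1, Socs2, Socs3 and Socs4 did not pass in either genotype. These calls come from a fit that does not pair the libraries of a mouse. With the mouse as a block Pim2 also rose in T/F cells (limma adjusted p = 0.00898). In D/F cells Sh2b3 (0.00887) and Socs7 (0.0194) then rose and Pim3 (0.0242) fell, as in T/F cells. Socs1 fell in T/F cells with the block (limma adjusted p = 0.0184). For no member did the test of a difference in response between the genotypes pass, with or without the block. All values below are TPM, a transcript level corrected for gene length and library size, and fold changes are of TPM + 1. A gene passed when its Benjamini-Hochberg adjusted p over all genes tested was under 0.05 in limma.

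In D/F cells 1 of the 10 genes passed, against 11.6% of the 15501 genes tested. In T/F cells 4 of 10 passed, against 43.4% of 15256 genes, and over both genotypes together 5 of 10 passed, against 45.3% of 15583 genes. These shares of members were near the background. The median change of the members was 0.12 on the log2 scale for D/F cells and 0.11 for T/F cells, where that of all genes tested was 0.06 and 0.07. Only Pim2 in D/F cells was both past the test and above 2-fold, a combination met by 7.28% of the genes tested for D/F and 7.33% of those for T/F cells. Over both genotypes Pim2 again was the only member to meet it, as did 8.80% of genes. Since the vehicle and treated cells came from the same mice, a fit with the mouse as a block was also made. With that block 4 members passed in D/F cells, where 39.3% of all genes did, and 6 in T/F cells, where 54.1% did. Over both genotypes 6 passed with the block, against 60.3% of genes.

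**Figure D1:**
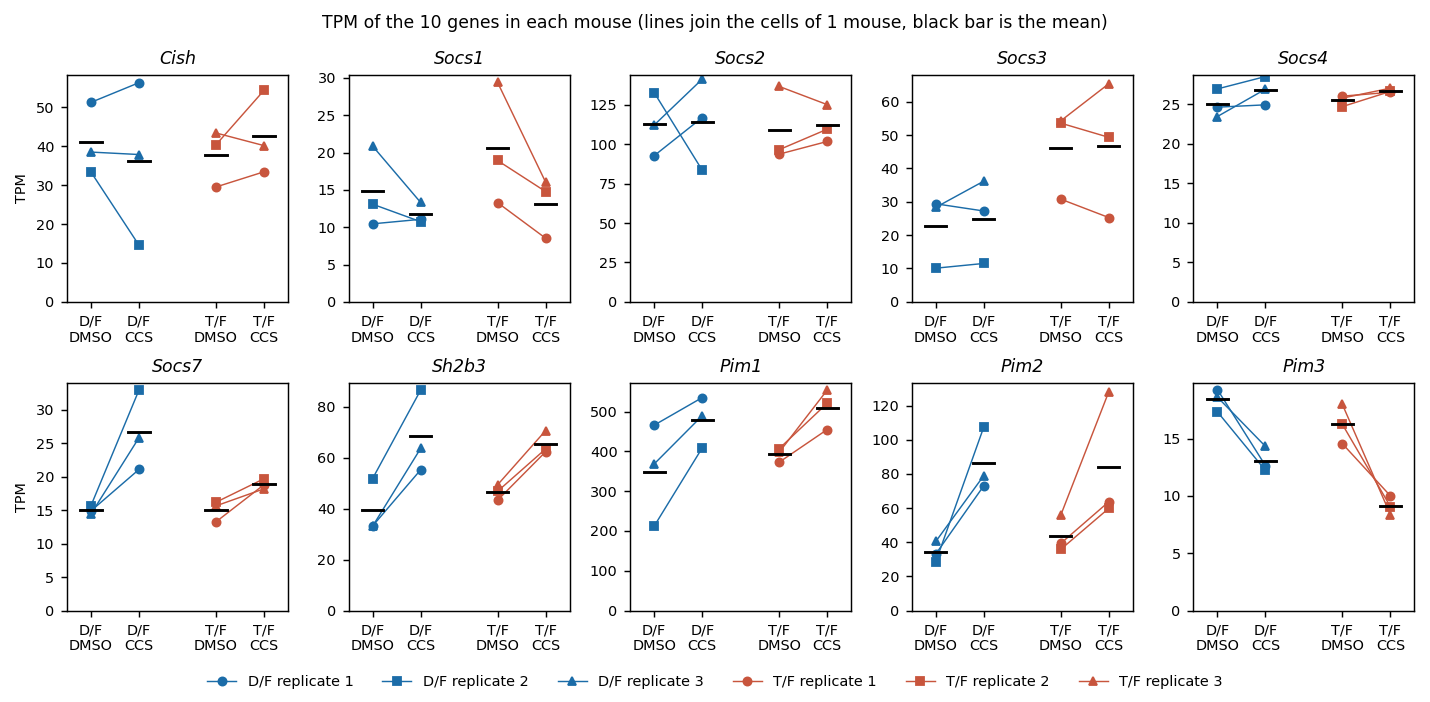
Level of each of the 10 genes in TPM (y axis, from 0) in the 12 libraries, by genotype and treatment (x axis); lines join the 2 libraries of 1 mouse and black bars are group means. Pim1, Pim2, Sh2b3, Socs7 and Socs4 were higher after CCS1477 (CCS) in 6 of 6 mice, and Pim3 was lower in 6 of 6. Socs1 was lower in 5 of 6, and Cish, Socs2 and Socs3 rose in some mice and fell in others. The share of all genes that moved 1 way in 6 of 6 mice was not counted. With the mouse as a block 60.3% of genes passed over both genotypes.

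Among the vehicle-treated cells the members spanned a wide range of levels. Pim1 was the most abundant, with means ± SD (n = 3) of 349 ± 128 TPM for D/F and 392 ± 17.6 TPM for T/F cells, and averaged over the 12 libraries it lay at percentile 98.3 of all genes. Socs2 came next, at 113 ± 20.0 TPM for D/F and 109 ± 24.0 TPM for T/F cells, and its range did not overlap with that of Pim1 in either genotype. In D/F cells Cish, Sh2b3 and Pim2 followed with overlapping ranges around 34.1 to 41.1 TPM. Socs4, Socs3 and Pim3 formed a lower overlapping run, and Socs7 and Socs1 were last at 15.0 and 14.8 TPM. In T/F cells Sh2b3, Socs3, Pim2 and Cish had means between 37.8 and 46.5 TPM, with each range overlapping the next. Socs4, Socs1, Pim3 and Socs7 were below them, from 25.5 down to 15.0 TPM, again each overlapping its neighbour.

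Pim2 had the largest change of the members. Pim2, on chrX:7878262-7883432 (GRCm38, plus strand), is a short-lived kinase that protects blood cells against withdrawal of growth factors. Its level in D/F cells was 33.1, 28.7 and 40.5 TPM with vehicle in replicates 1 to 3, and 73.1, 108 and 79.0 TPM with CCS1477. The T/F values were 39.3, 35.8 and 55.8 TPM with vehicle and 63.7, 59.8 and 128 TPM with CCS1477. Every treated library was above every vehicle library of its genotype, and the highest treated libraries were D/F replicate 2 and T/F replicate 3. For D/F cells the log2 fold change was 1.31 ± 0.21 (SE), with an adjusted p of 0.0183 in limma. For T/F cells it was 0.86 ± 0.33 with an adjusted p of 0.0826, a 95% interval from 0.05 to 1.68. With the mouse as a block both passed, at adjusted p-values of 0.0154 and 0.00898. Without D/F replicate 1 or replicate 3, which leaves 2 mice, the D/F adjusted p was 0.172 or 0.197 and no gene of the table passed. Without D/F replicate 2 it was 0.0214, at a log2 fold change of 1.03. Without T/F replicate 3 the T/F adjusted p was 0.0149, and without replicate 1 or 2 it was 0.198 or 0.189. Within mice the ratio of treated to vehicle level was 2.64 ± 0.972 (SD, n = 3) in D/F and 1.86 ± 0.375 in T/F cells. Over both genotypes the log2 fold change was 1.09 with an adjusted p of 0.00138, and it passed in every alternative run for that comparison.

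Pim3, on chr15:88862186-88865726 (plus strand), encodes the third kinase of the family and was the only member that fell in a test without the block. In D/F cells it was 19.3, 17.3 and 18.6 TPM with vehicle, and 12.6, 12.2 and 14.3 TPM with CCS1477. T/F cells had vehicle values of 14.6, 16.3 and 18.0 TPM and treated values of 10.01, 9.08 and 8.38 TPM. No treated library reached the vehicle range in either genotype. The log2 fold change was -0.76 ± 0.10 in T/F cells (limma adjusted p = 0.00262), and it passed there in each of the 11 alternatives. It was -0.47 ± 0.14 in D/F cells, where the adjusted p was 0.083 and, with the mouse as a block, 0.0242. Over both genotypes Pim3 had the smallest adjusted p of the members, 0.000194, at a log2 fold change of -0.62.

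Pim1, on chr17:29490753-29496112 (plus strand), was named for a proviral integration site in mouse lymphoma and is a well-known STAT5 target. With vehicle it was at 466, 212 and 369 TPM in D/F cells and at 373, 407 and 398 TPM in T/F cells. With CCS1477 it was at 535, 409 and 490 TPM in D/F and at 455, 521 and 554 TPM in T/F cells. The T/F groups did not overlap, whereas in D/F cells the vehicle library of replicate 1 was above the treated library of replicate 2. Its log2 fold change was 0.37 ± 0.09 in T/F cells (limma adjusted p = 0.0212) and 0.52 ± 0.31 in D/F cells (adjusted p = 0.308, 0.0786 with the block). Without D/F replicate 2 the D/F value was 0.30. The T/F call was lost without T/F replicate 2 (limma adjusted p = 0.128) or replicate 3 (0.0945). It was also lost when the 4 groups shared an estimate of the spread (0.295). Over both genotypes the adjusted p was 0.0438, and it was between 0.0804 and 0.109 without D/F replicate 3 or any of the T/F replicates and 0.156 with libraries rescaled to the median gene.

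The make-up of the family shifted within each library. Summed TPM of the 3 PIM genes went from 401 ± 132 to 578 ± 46.4 in D/F cells and from 452 ± 23.2 to 603 ± 81.7 in T/F cells (SD, n = 3). Pim1 supplied most of it throughout, from 77.3% to 89.9% in single libraries. Pim2 made up 8.98% ± 2.39 of the sum with vehicle and 15.2% ± 4.52 with CCS1477 in D/F cells, and 9.61% ± 2.05 and 13.6% ± 4.41 in T/F cells. Pim3 made up 4.93% ± 1.58 and then 2.27% ± 0.214 in D/F cells, and 3.59% ± 0.205 and then 1.55% ± 0.340 in T/F cells. The ratio of Pim2 to Pim3 was between 1.65 and 3.10 in the 6 vehicle libraries and between 5.52 and 15.3 in the 6 treated libraries. These shares and ratios follow from the fold changes above and were given no test of their own.

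**Figure D2:**
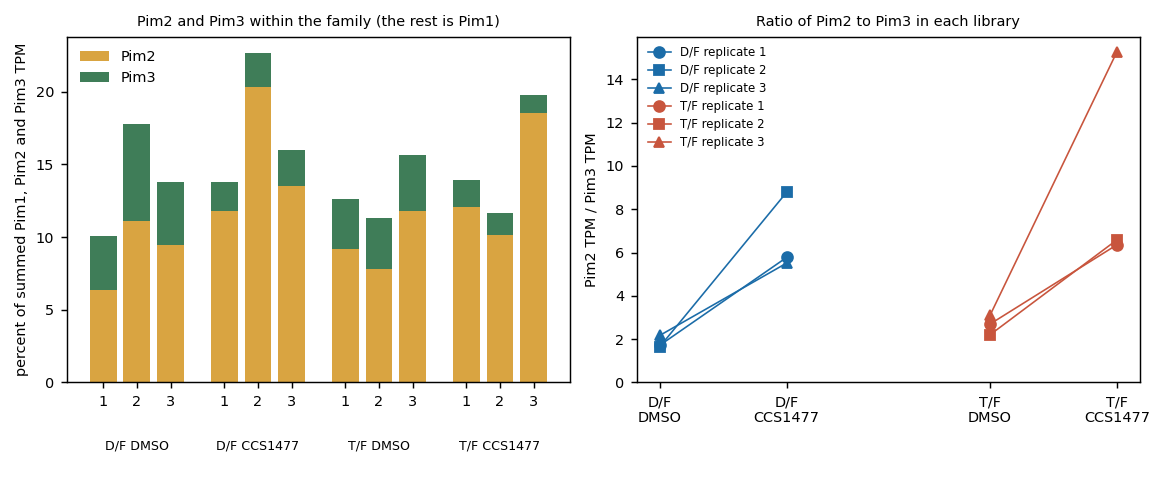
Left, Pim2 and Pim3 as percent of the summed TPM of Pim1, Pim2 and Pim3 (y axis) in each of the 12 libraries (x axis, replicate 1 to 3 per group); right, Pim2 TPM divided by Pim3 TPM, with lines joining the libraries of 1 mouse. The ratio was higher after CCS1477 in 6 of 6 mice, and T/F replicate 3 had the highest, 15.3.

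The promoters of the 2 kinases that moved in opposite directions are shown for comparison. Each line holds the 250 bases before the RefSeq start site, read 5′ to 3′ on the gene's strand (GRCm38.p6). For Pim2 this is chrX:7878056-7878305 and for Pim3 chr15:88861944-88862193.
Pim2: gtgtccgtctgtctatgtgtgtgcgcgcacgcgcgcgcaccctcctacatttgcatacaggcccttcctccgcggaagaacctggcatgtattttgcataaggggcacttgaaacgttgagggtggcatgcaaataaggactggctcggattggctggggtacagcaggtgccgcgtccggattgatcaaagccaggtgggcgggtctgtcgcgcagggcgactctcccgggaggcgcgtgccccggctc
Pim3: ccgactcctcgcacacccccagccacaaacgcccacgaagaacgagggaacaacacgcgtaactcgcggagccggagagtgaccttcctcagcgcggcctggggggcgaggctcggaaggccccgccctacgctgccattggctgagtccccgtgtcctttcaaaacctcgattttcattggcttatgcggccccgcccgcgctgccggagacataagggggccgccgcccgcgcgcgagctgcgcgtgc
Neither window held the STAT motif TTCNNNGAA or its form with a gap wider by 1 base, on either strand. Absence from this window says only that these letters are not in it.

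Sh2b3, on chr5:121815488-121837646 (minus strand), encodes an SH2 adaptor that holds back JAK2, and its loss expands blood progenitors. In D/F cells it was 33.2, 51.9 and 33.1 TPM with vehicle and 55.3, 86.6 and 63.7 TPM with CCS1477. The T/F values were 43.3, 46.8 and 49.4 TPM with vehicle and 62.4, 63.5 and 70.7 TPM with CCS1477. Treated and vehicle libraries did not overlap in either genotype, and D/F replicate 2 was the highest library of both D/F groups. The log2 fold change was 0.48 ± 0.08 in T/F cells (limma adjusted p = 0.00582) and 0.79 ± 0.26 in D/F cells (adjusted p = 0.0954). With the mouse as a block the D/F adjusted p was 0.00887. Without the block it was 0.0235 when D/F replicate 2 was left out, and 0.337 or 0.452 when replicate 1 or 3 was. The T/F value was 0.0639 without T/F replicate 2 and 0.101 when the 4 groups shared an estimate of the spread. The ratio within mice was 1.75 ± 0.147 (SD, n = 3) in D/F and 1.41 ± 0.0464 in T/F cells. Sh2b3 overlaps Atxn2 on the opposite strand, and Atxn2 also was higher in 6 of 6 mice, its ratio within mice being 1.35 ± 0.178 for D/F and 1.20 ± 0.0628 for T/F cells. How reads from the overlap were assigned was not tested.

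Of the SOCS genes only Socs7 passed without the block. Socs7, on chr11:97362551-97398542 (plus strand), encodes a large SOCS protein that also binds adaptor proteins outside the receptor. With vehicle it was 14.9, 15.7 and 14.4 TPM in D/F cells and 13.2, 16.2 and 15.6 TPM in T/F cells. With CCS1477 it was 21.1, 32.9 and 25.8 TPM in D/F and 18.8, 19.7 and 18.2 TPM in T/F cells. Vehicle and treated ranges were separate for both genotypes. For D/F cells the log2 fold change was 0.77 ± 0.19 (SE), with an adjusted p of 0.0519 in limma and 0.0194 with the mouse as a block. It was 0.32 ± 0.09 in T/F cells (adjusted p = 0.0344), a call that was lost without any 1 of the T/F replicates, at adjusted p-values between 0.0889 and 0.149. It was also lost with libraries rescaled to the median gene (0.0880), quantile normalization (0.0770) or a shared estimate of the spread (0.148). Without D/F replicate 2 the D/F adjusted p was 0.0441, and without replicate 1 or 3 it was 0.23 or 0.366. After CCS1477 all D/F libraries were above all T/F libraries, and the T/F response minus the D/F response was -0.45 on the log2 scale (95% interval -0.91 to 0.01). That difference had a limma adjusted p of 0.9999, or 0.305 with the mouse as a block, and so did not pass.

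Socs1, on chr16:10782240-10785536 (minus strand), is the main inhibitor of interferon signaling and binds JAKs directly. It was 10.5, 13.1 and 20.9 TPM with vehicle and 11.1, 10.7 and 13.3 TPM with CCS1477 in D/F cells. The T/F values were 13.3, 18.9 and 29.4 TPM with vehicle and 8.53, 14.8 and 16.1 TPM with CCS1477. It was lower in 5 of 6 mice, the exception being D/F replicate 1, but the groups overlapped in both genotypes. Its log2 fold change was -0.27 (95% interval -0.90 to 0.36) in D/F and -0.59 (-1.43 to 0.26) in T/F cells, with limma adjusted p-values of 0.538 and 0.217. With the mouse as a block Socs1 fell in T/F cells, at an adjusted p of 0.0184, and over both genotypes, at 0.0154.

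Socs3, on chr11:117966079-117970047 (minus strand), is the STAT3-induced inhibitor of IL-6 and G-CSF receptors. Its RefSeq promoter (chr11:117969367-117969616, minus strand) is shown because, of the member promoters searched, it alone held the STAT motif TTCNNNGAA, in capitals. The motif lies 154 bases before the RefSeq start site.
Socs3: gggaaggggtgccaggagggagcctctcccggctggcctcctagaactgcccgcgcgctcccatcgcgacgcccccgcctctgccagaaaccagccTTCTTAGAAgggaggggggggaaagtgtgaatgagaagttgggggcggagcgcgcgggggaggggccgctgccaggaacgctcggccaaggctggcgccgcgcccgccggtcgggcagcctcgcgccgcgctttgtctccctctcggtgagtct
The motif is its own reverse complement, so a single search covers both strands. RefSeq promoters were found for 8 of the 10 members, and not for Socs2 and Socs7. The windows of Socs3, Cish and Sh2b3 lie inside the gene positions given here. Bases before the outer 5′ end of those genes were not searched. In all, 7.02% of 32851 promoters of this length held the motif.

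Socs3 levels differed between mice more than between treatments. In D/F cells they were 29.4, 10.1 and 28.3 TPM with vehicle and 27.2, 11.5 and 36.2 TPM with CCS1477, with replicate 2 lowest both times. In T/F cells they were 30.8, 53.6 and 54.3 TPM with vehicle and 25.3, 49.4 and 65.4 TPM with CCS1477, with replicate 1 lowest both times. Its log2 fold change for D/F cells was 0.14 (95% interval -1.17 to 1.44) and that for T/F cells -0.04 (-1.02 to 0.93).

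Cish, on chr9:107296026-107302784 (plus strand), is a STAT5 target that acts on IL-2 family and IL-3 type receptors. It was 51.3, 33.4 and 38.5 TPM with vehicle and 56.4, 14.5 and 37.9 TPM with CCS1477 in D/F cells. The T/F values were 29.5, 40.4 and 43.4 TPM with vehicle and 33.4, 54.4 and 40.2 TPM with CCS1477. The low D/F value came from replicate 2, and without that mouse the D/F log2 fold change was 0.055 in place of -0.35. Its 95% intervals were -1.50 to 0.81 in D/F and -0.38 to 0.70 in T/F cells. An antisense gene, Gm17041, overlaps Cish and was listed at 12.2 TPM or less in every library. Its mean went from 7.60 to 0.846 TPM in D/F cells and from 3.81 to 2.46 TPM in T/F cells, and over both genotypes it passed at a log2 fold change of -1.52 (limma adjusted p = 0.0465). How reads from that overlap were assigned was not tested.

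Socs2, on chr10:95385362-95417180 (minus strand), limits growth hormone signaling and is induced by STAT5. It ranged from 92.8 to 133 TPM with vehicle and from 83.5 to 141 TPM with CCS1477 in D/F cells, and from 93.7 to 137 and from 102 to 125 TPM in T/F cells. For D/F cells the log2 fold change was 0.00 (95% interval -0.59 to 0.59) and for T/F cells 0.06 (-0.36 to 0.47). The D/F value was 0.33 without D/F replicate 2. Socs4, on chr14:47276931-47296102 (plus strand), a regulator linked to the EGF receptor, was the steadiest member. It lay between 23.5 and 28.5 TPM in all 12 libraries. It was higher after CCS1477 in 6 of 6 mice, with a mean ratio of 1.07 ± 0.0689 (SD, n = 3) for D/F and 1.05 ± 0.0294 for T/F cells. The T/F groups did not overlap, but the log2 fold changes of 0.10 (95% interval -0.25 to 0.44) in D/F and 0.07 (-0.07 to 0.20) in T/F cells did not pass.

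**Figure D3:**
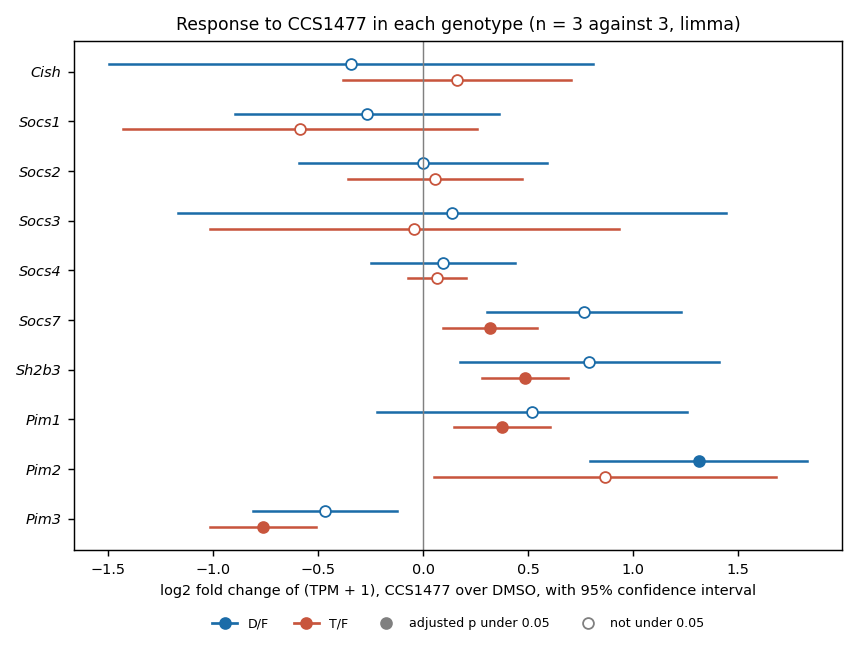
Log2 fold change of TPM + 1 after CCS1477 (x axis) for each of the 10 genes in D/F and T/F cells, n = 3 libraries per group; bars are 95% confidence intervals of the limma fit and filled points have an adjusted p under 0.05. Pim2 in D/F and Pim3, Pim1, Sh2b3 and Socs7 in T/F cells are filled, and the D/F intervals of Cish and Socs3 are the widest.

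By the range of the libraries alone, treated and vehicle groups did not overlap for 4 members in D/F cells (Pim2, Pim3, Sh2b3 and Socs7), as for 36.6% of all genes. For 6 members the T/F groups did not overlap, with Pim1 and Socs4 in addition, as for 56.1% of all genes. In an exact permutation test on TPM each of these had p = 0.1, the smallest that 3 against 3 libraries can give.

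The response of no member differed between the genotypes by the test of the difference itself. That interaction passed for 0 of 10 members and 0% of 15583 genes in limma. In this unpaired fit 659 genes but no member had an unadjusted p under 0.05. With the mouse as a block it again passed for 0 members and 0% of genes. The block gave Sh2b3, at -0.30, an unadjusted p of 0.0187 (limma adjusted p = 0.265). For Socs7 these were 0.0337 and 0.305. How many of all genes had an unadjusted p under 0.05 with the block was not counted. The largest differences among the members, as T/F response minus D/F response on the log2 scale, were 0.51 for Cish (95% interval -0.77 to 1.79), -0.45 for Pim2 (-1.37 to 0.47) and -0.45 for Socs7. They were 0.11, -0.17 and -0.32 without D/F replicate 2. The intervals do not show that the responses were alike.

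Levels were also compared between the genotypes within each treatment. With vehicle 0 of 10 members passed in limma, as did 0.0328% of genes. An unadjusted p under 0.05 was reached by 939 of 15265 genes and by 1 member. This was Socs3, whose 3 T/F libraries were all above the 3 D/F libraries, at 46.2 ± 13.4 against 22.6 ± 10.9 TPM (SD, n = 3). Its log2 difference was 1.09 ± 0.45 (SE), with an adjusted p of 0.803, and 0.62 without D/F replicate 2. Groups without overlap were seen for 12.6% of all genes in that comparison. With CCS1477 0 of 10 members passed, against 0.0329% of genes, and groups of 20.3% of genes did not overlap. An unadjusted p under 0.05 was reached by 1643 of 15199 genes and by 2 members. The 2 members were Pim3, at 9.16 TPM in T/F and 13.1 TPM in D/F cells (log2 difference -0.47, adjusted p = 0.279), and Socs7, at 18.9 and 26.6 TPM (-0.45, adjusted p = 0.431).

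The surrounding pathway was read from lists of related genes, over both genotypes. Among 18 cytokine receptors, JAKs and STATs, 2 rose and 6 fell, against 25.8% and 19.6% of all genes. Those that fell were Kit, Flt3, Csf2rb2, Il6ra, Il6st and Stat5a, which encode the receptors for SCF and FLT3 ligand, a beta chain of the IL-3 receptor, both IL-6 receptor chains and a STAT. The other IL-3 receptor genes did not pass, with Il3ra at 0.38 (limma adjusted p = 0.189) and Csf2rb at -0.61 (0.0805). Flt3 had the largest change, at a log2 fold change of -1.40 (limma adjusted p = 0.0146), followed by Kit at -1.10 (0.0101). Jak1 rose by 0.52 (0.0142) and Stat2 by 0.58 (0.0121), while Jak2 at 0.31 and Stat5b at 0.05 did not pass.

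Of 19 other regulators of cytokine signaling, most of them inhibitors, 3 rose and 7 fell, against 25.8% and 19.6% of all genes. The rising genes were Pias1, Pias3 and Pias4, which encode SUMO ligases of STAT proteins, with Pias3 at a log2 fold change of 1.77 (limma adjusted p = 3.49e-05). Sla, an adaptor that lowers receptor levels, fell by 2.47 on the log2 scale (8.40e-05), and Dok2 fell by 1.14. The phosphatase genes Ptpn6 (SHP1) and Ptpn1 fell by 0.37 (0.00146) and 0.35 (0.0263), and Sla2, a relative of Sla, by 0.48 (0.0484). Sh2b1 and Sh2b2, relatives of Sh2b3 of which Sh2b1 can activate JAK2, fell by 0.17 and 0.53, whereas Sh2b3 itself rose by 0.64.

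Of 15 other targets of STAT3 or STAT5, 1 rose and 4 fell, against 25.8% and 19.6% of all genes. Myc fell by 3.83 on the log2 scale (limma adjusted p = 1.55e-07), Ccnd2 by 1.49 (5.82e-06), Cdc25a by 0.93 and Il2ra by 0.67, and Mcl1 rose by 0.25 (0.0314). Bcl2l1 was at -0.07 and Bcl6 at 0.00, and neither passed. Among 11 genes for PIM kinase substrates 4 rose and 4 fell, against the same shares of all genes. The cell cycle inhibitor Cdkn1b rose by 0.94, the phosphatase Cdc25c by 0.78, the transcription factor Foxo3 by 0.28 and the death promoter Bad by 0.23. The translation factor Eif4b fell by 0.56 and the mTORC1 component Akt1s1 by 0.43, as did Myc and Cdc25a, which are in both lists, by the values above. The medians of the 4 lists were -0.05, -0.09, -0.14 and 0.14, where the members' median was 0.06 and that of all genes 0.07.

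**Figure D4:**
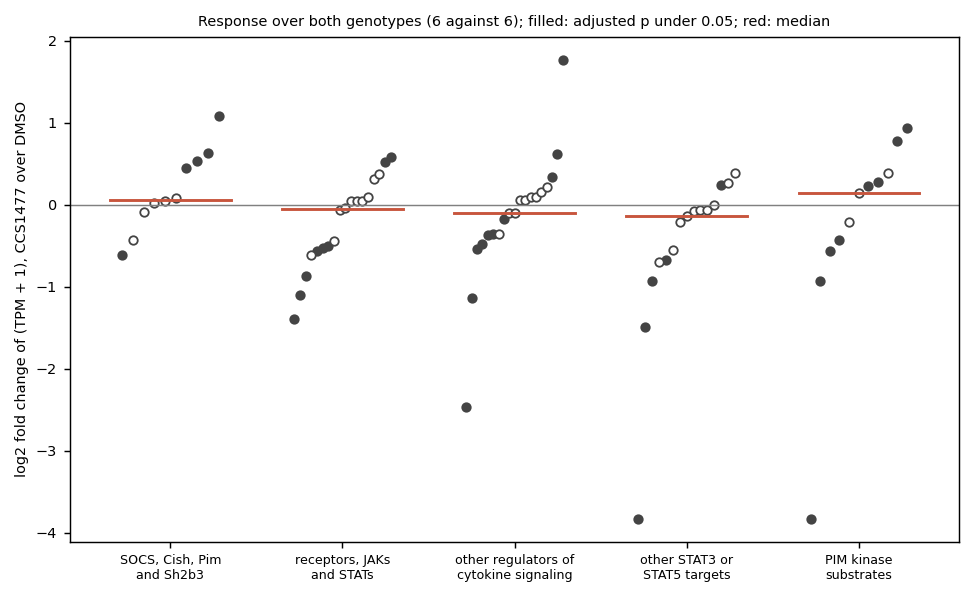
Log2 fold change of TPM + 1 after CCS1477 over both genotypes (y axis; 6 treated against 6 vehicle libraries) for the 10 members and 4 lists of related genes (x axis); each point is a gene, filled where the adjusted p is under 0.05, and red lines are medians. The medians lie between -0.14 and 0.14, and Myc, at -3.83, is the lowest point of its 2 lists.

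Marker genes of the leukemic progenitors, and of cells they could be mixed with, were also read. Their levels do not separate fewer cells from less RNA per cell. Of the progenitor markers 8 of 8 were listed (among them Kit, Flt3, Mpo and Elane) and all 8 were lower after CCS1477 in each of 6 mice. Their summed level went from 3876 to 10966 TPM with vehicle to 808 to 4438 TPM with CCS1477 in D/F cells, and from 4737 to 7117 TPM to 1773 to 3197 TPM in T/F cells. The 7 neutrophil markers summed to 2681 to 9425 and 1629 to 9322 TPM in D/F cells and to 2333 to 7155 and 2492 to 6900 TPM in T/F cells. Most of that sum was S100a8, S100a9 and Ngp, which, like Ltf, did not move the same way in every mouse. Camp, Retnlg and Mmp8 were lower after CCS1477 in each of 6 mice. The 6 of 7 listed macrophage and monocyte markers went from 408 to 1200 TPM to 147 to 557 TPM in D/F cells and from 293 to 476 to 154 to 261 TPM in T/F cells. Ly6c2 made up most of that sum, and each of the 6 markers was lower in each of 6 mice. The 3 of 6 listed T cell markers, 2 of 5 B cell markers and 4 of 5 erythroid markers each summed to 25.7 TPM or less in every library. The natural killer marker Klrb1c was listed at 0 in 5 libraries. The mast cell and basophil markers, 3 of 4 listed, went from 87.0 to 182 TPM to 17.8 to 40.3 TPM in D/F cells and from 39.7 to 78.9 to 18.1 to 38.2 TPM in T/F cells. The 4 megakaryocyte markers went from 34.9 to 212 TPM to 20.1 to 65.4 TPM and from 49.4 to 56.6 to 32.7 to 35.2 TPM. The 212 TPM was D/F replicate 2, with the other D/F vehicle libraries at 34.9 and 50.3 TPM. The 182 TPM of the mast cell and basophil markers was also that library, with the others at 97.8 and 87.0 TPM. Nkg7, a granule gene listed as a natural killer marker, was between 65.5 and 159 TPM with vehicle and between 5.49 and 26.9 TPM with CCS1477. The part of these differences, and of those of D/F replicate 2, in the members' values was not tested. The levels of the deleted genes were not analysed here.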

How the data were processed

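RNA was sequenced from 12 libraries, the vehicle and CCS1477 cells of 6 mice. The authors deposited TPM per gene, a normalized unit that does not keep read counts, so the reads behind each value are unknown. The labels state a nominal depth of 30000000 reads per sample. The submitters' processing notes name kallisto and mm10, the labels name both ribosome depletion and a TruSeq stranded mRNA kit, and no spike-in or strand setting is given. The table holds genes that reached at least 2.00 TPM in some library, and its columns sum to 914204 to 931697 TPM. Groups came from the labels. Tests covered genes whose mean reached 1 TPM in either group compared, on log2(TPM + 1). They used limma 3.58.1 (R 4.3.3, two-sided, eBayes without a trend, Benjamini-Hochberg adjustment). The unpaired fits were first run on simulated libraries drawn without a mouse effect. That run did not cover the fit with the mouse as a block. A fold change of TPM + 1 understates the change of low genes. The main fits were unpaired. The labels give the same mouse number to a vehicle and a treated library, and deviations from group means correlated at 0.539 to 0.669 (D/F) and 0.354 to 0.496 (T/F) within mice, against at most 0.141 between mice, so the mouse was also fitted as a block. Alternatives were other pseudocounts (0.1), filters (5 TPM or none), scalings, variance models and leaving out each mouse. The members, all of which are named, and the lists of related genes were chosen with earlier results of these data known. From the lists, the genes that passed over both genotypes are named, with a few that did not for comparison. Genes most like a member were to be named only for members above 2-fold in both genotypes, which 0 were. Gene positions are from GENCODE (GRCm38), and promoters are from RefSeq.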

Additional observations from a re-analysis of the deposited data

How the results depend on the processing

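Without spike-ins or counts, TPM gives levels relative to the whole library, and no depth limit can be stated. With the mouse as a replicate block 4 members passed in D/F, 6 in T/F, 6 over both genotypes and 0 for the difference between genotypes; among the members it changed no call beyond those given beside the genes. Over both genotypes it moved the genes that rose and fell from 2 and 6 to 4 and 8 for receptors, JAKs and STATs, from 3 and 7 to 5 and 8 for other regulators, from 1 and 4 to 2 and 6 for STAT targets, and from 4 and 4 to 6 and 5 for PIM substrates. Of all genes 60.3% passed over both genotypes with the block. For D/F cells 1 member and 1805 of 15501 genes passed in the main fit. With a filter at 5 TPM 2 members and 2091 of 12237 genes passed. Quantile normalization gave 2 members and 2841 of 15501 genes, and a trend in the variance 2 and 2167 of 15501. Libraries rescaled to the median gene gave 3 members and 2282 of 15471 genes. When the 4 groups shared an estimate of the spread, 4 members and 4940 of 15501 genes passed. For T/F cells 4 members and 6620 of 15256 genes passed in the main fit. The shared estimate gave 1 member and 3713 of 15256 genes. Rescaling gave 3 members and 6289 of 15265 genes, and quantile normalization 3 and 6737 of 15256. Leaving out a mouse gave 0 to 3 members and 0 to 3739 genes for D/F cells. It gave 1 to 3 members and 3192 to 5122 genes for T/F cells, and 4 to 5 members and 5660 to 8546 genes over both genotypes. Over all genes, 6098 passed for D/F cells with the block, 3739 without D/F replicate 2 and 0 without D/F replicate 1 or 3. For T/F cells 3192 genes passed without T/F replicate 2. The cause of these shifts was not tested, though leaving out a mouse leaves 2 libraries a group. The counts for the difference between genotypes and for the genotype comparisons stayed at 0 members in every alternative. Of 740 member values under alternatives, 46 changed sign and 0 of those passed; their values as reported lay between -0.35 and 0.39 on the log2 scale. In D/F cells Socs2 went to 0.090 with quantile normalization and to between -0.17 and 0.33 without a mouse, and Cish to between -0.58 and 0.055. In T/F cells rescaling to the median gene gave -0.023 for Socs2 and -0.012 for Socs4, and leaving out a mouse gave -0.0044 to 0.15 for Socs2 and -0.20 to 0.074 for Socs3.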
